A study of Mus musculus with 2 samples.

Results

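The nuclear lamina and heterochromatin genes described here are 10 rows of a table of 32813 gene symbols, chosen by name: the lamin genes Lmna, Lmnb1 and Lmnb2, the lamin B receptor gene Lbr, the LEM-domain genes Emd, Lemd3 and Tmpo, and the HP1 (heterochromatin protein) genes Cbx1, Cbx3 and Cbx5. Each of the 10 was listed above 0 in both libraries. RNA had been sequenced from type 5 bipolar cells, a cone bipolar class of the mouse retina, sorted by fluorescence from dissociated retinas of the Htr3a-GFP line, in which the promoter of Htr3a drives a green fluorescent protein. There is a single group with 2 biological replicates and no treatment, no other cell population and no other genotype, and the sources used here do not give the age, sex or number of animals behind each library. Each value is thus a level in the sorted cells in transcripts-per-million units (TPM), a unit corrected for transcript length, and not an enrichment over retina.

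The lamina is a meshwork of lamins under the inner nuclear membrane. Lmna encodes the A-type lamins A and C by alternative splicing, and Lmnb1 and Lmnb2 encode the B-type lamins. Condensed chromatin is held at the nuclear edge by several tethers, among them the lamin B receptor and a mechanism that needs A-type lamins. HP1 proteins bind methylated histone tails in heterochromatin. In the mouse, most cells keep heterochromatin at the nuclear edge, while mature rod photoreceptors, which lack both the lamin B receptor and A-type lamins, gather it in the nuclear centre.

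Markers of the labelled cell type were present. In the limma test also used for the lamina genes, 5 of 5 type 5 and 8 of 8 ON and pan-bipolar genes were above 10 TPM. The share of all genes tested was 32.4%. Htr3a, whose promoter drives the sorted label, belongs to the type 5 list, so its presence is no independent sign of the cell type. Kcng4, a potassium channel subunit, led the first list with 229 and 326 TPM in replicates 1 and 2. Cabp5, a calcium-binding protein, led the second by mean, with 1609 and 1064 TPM. Rod genes were also present, with 9 of 11 above 1 TPM, against 55.5% of all genes tested. They had a summed level of 1692 and 1769 TPM, led by Gngt1, a transducin subunit, at 965 and 639 TPM. In bulk RNA, fewer cells of a type and less RNA per cell cannot be told apart. Genes of the mitochondrial genome took 17.3% and 24.6% of the TPM.

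The 10 genes formed a wide range of levels, with HP1 genes at the top in both libraries and the 3 lamins lowest by mean. In replicate 2 Lmna ranked 6 of 10, above Lemd3 and Lbr. Over the libraries, 9 of the 10 were above 1 TPM and 5 above 10 TPM, where all genes tested gave 55.5% and 32.4% (limma on log2(TPM + 1), intercept only, one-sided against the line, with a threshold of 0.05 after Benjamini-Hochberg adjustment over the 19968 genes above 0 in either library). The 5 above 10 TPM were Cbx3, Cbx1, Cbx5, Tmpo and Emd. Lmnb1 was the gene not called above 1 TPM, although all 10 had at least 1 TPM in both libraries, as did 67.6% of all genes tested. Those 5 were also the genes at or over 10 TPM in each library, where the share of all genes tested was 41.3%. Replicate 1 alone had 8 of the 10 at or over 10 TPM and replicate 2 alone had 6, against 49.8% and 46.5% of all genes tested. Under 4 other limma settings all 10 were called above 1 TPM, where the share of all genes ranged from 57.7% to 73.9%. At an unadjusted p under 0.05 all 10 were above 1 TPM as well, as were 57.8% of all genes tested. The fit took each variance from the trend with abundance, so the wide gap between the Lmna values had no weight in the Lmna call. In log2(TPM + 1), the 10 genes had a median level of 4.54 and all genes tested one of 3.22.

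**Figure D1:**
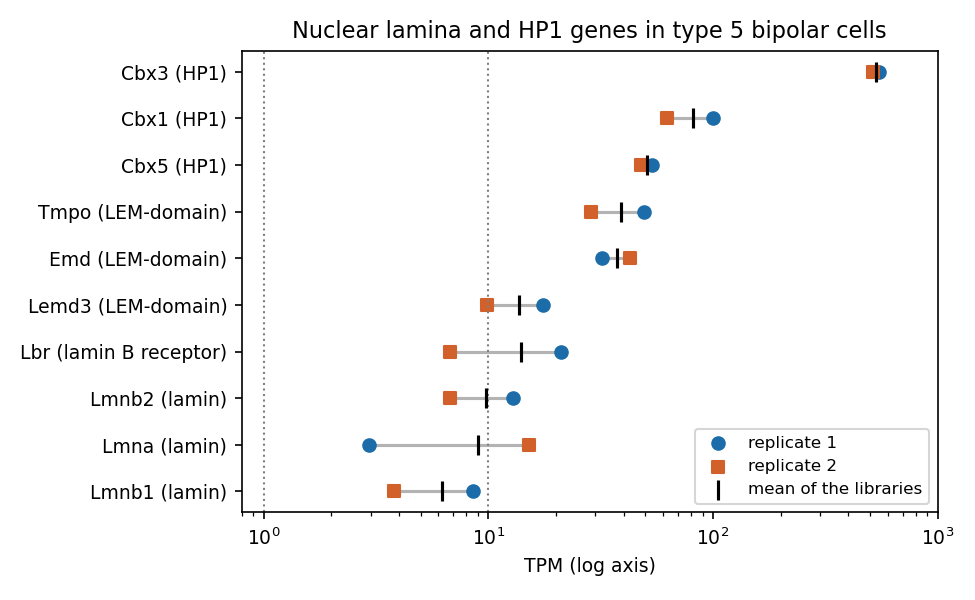
TPM of each gene (log axis) in replicate 1 (circles) and replicate 2 (squares), with the mean of the libraries as a bar and dotted lines at 1 and 10 TPM. Cbx3 lies far above the others in both libraries, and Lmna has the widest gap between its libraries, at 2.95 and 15.1 TPM.

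Lamin genes were the lowest of the set by mean, and the libraries differed in which lamin led. Lmna had 2.95 TPM in replicate 1 and 15.1 TPM in replicate 2, a mean of 9.04 ± 8.61 TPM (SD, n = 2). Lmnb1 had 8.59 and 3.81 TPM, with a mean of 6.20 ± 3.38 TPM. Lmnb2 had 12.9 and 6.77 TPM, with a mean of 9.81 ± 4.30 TPM (SD, n = 2). Lmna was thus the lowest of the 3 lamins in replicate 1 and the highest in replicate 2, while Lmnb2 exceeded Lmnb1 in both, by 1.496 and 1.78 times.

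The summed lamin TPM was nearly the same in both libraries, at 24.4 and 25.7 TPM. Within it the share of Lmna was 12.1% in replicate 1 and 58.8% in replicate 2. The B-type genes together made up 87.9% and 41.2%. These shares depend on ratios within a library, so rescaling a library as a whole leaves them as they are. No test was made between single genes or of a share. With 2 libraries the smallest two-sided p of an exact sign test is 0.5.

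Lmna differed by 2.03 log2 units (replicate 2 minus replicate 1, on the log2(TPM + 1) scale), the largest difference among the 10 genes and the opposite direction to both B-type genes, at -0.995 for Lmnb1 and -0.83 for Lmnb2. The spread was wide for all genes of this level: among the 6128 genes whose mean lay between 1 and 10 TPM, a library had an SD of 1.16 log2 units, and 52.4% of these genes were more than 1 log2 unit apart.

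Markers of other retinal cells also differed between the libraries. Of all genes tested, 58.5% were lower in replicate 2, with a median log2 difference of -0.20. The summed TPM of 10 Muller glia genes was 193 in replicate 1 and 409 in replicate 2, with 8 of 10 genes higher in replicate 2. Vim, an intermediate filament gene at 0.20 and 119 TPM, made up much of that difference, and the sums without it were 193 and 290 TPM. Glul, the glutamine synthetase gene and the highest of the list by mean, had 75.8 and 124 TPM. No gene of the list was at 0.

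The 9 amacrine genes summed to 60.4 and 95.3 TPM, with 6 of 7 that were above 0 higher in replicate 2 and Calb2 and Chat listed at 0 in both. Pax6, the highest of these by mean, had 22.3 and 46.5 TPM. Slc6a9, a glycine transporter gene, was the exception, at 36.6 and 3.12 TPM. Without it the sums were 23.8 and 92.1 TPM, with Tfap2b, a transcription factor gene, at 0.33 and 20.4 TPM and Gad1, a GABA-synthesising enzyme gene, at 0.06 and 10.4 TPM. Rod genes were higher in replicate 2 for 9 of 11, and none was at 0, while 58.5% of all genes tested were lower in replicate 2. Cone genes ran the other way, with a sum of 189 and 43.7 TPM and 7 of 8 lower in replicate 2. Most of that sum was Gnat2, at 86.0 and 23.3 TPM, and Gngt2, at 83.05 and 12.3 TPM. The other cone genes had 8 TPM or less in both libraries, and Pde6c was listed at 0 in replicate 2. The part of these cells in the Lmna difference was not tested.

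Cells of vessels and immune cells were near the bottom of the scale. The 7 endothelial and pericyte genes summed to 4.55 and 3.48 TPM, with Cdh5, Cldn5 and Pdgfrb listed at 0 in both libraries and Pecam1 highest by mean, at 1.80 and 1.2 TPM. The 6 microglia genes summed to 3.41 and 15.8 TPM, C1qa was listed at 0 in both and Aif1 accounted for most of the second sum, at 0 and 12.95 TPM. No gene of either list was called above 1 TPM by limma, also at an unadjusted p under 0.05. The shares of all genes tested were 55.5% and 57.8%. The 7 ganglion cell genes summed to 31.8 and 73.0 TPM, almost all of it Thy1 at 28.3 and 63.9 TPM, and both libraries listed Nefm and Sncg at 0.

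**Figure D2:**
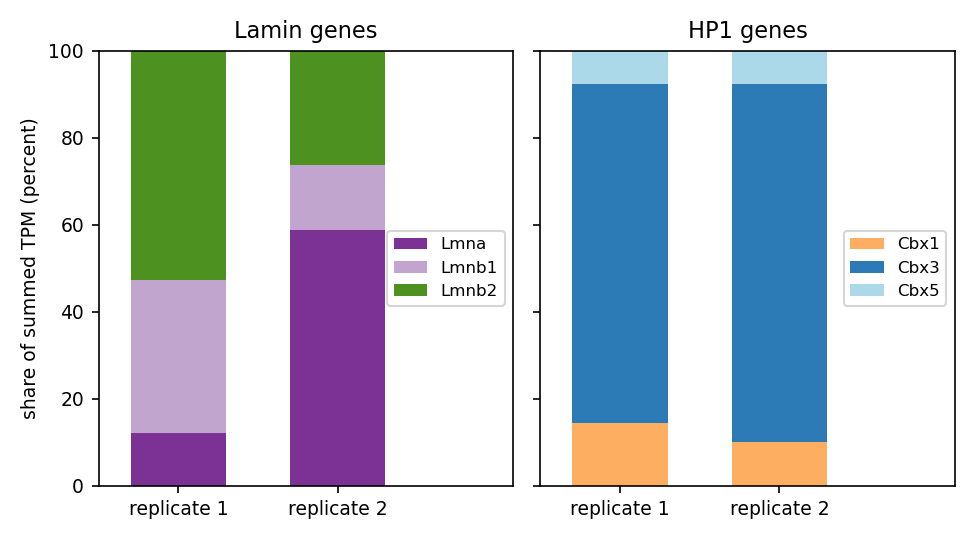
Share of each gene, in percent, of the summed TPM of the 3 lamin genes (left) and of the 3 HP1 genes (right), by library. Lmna makes up 12.1% of lamin TPM in replicate 1 and 58.8% in replicate 2, whereas Cbx3 stays at 78.0% and 82.4% of HP1 TPM.

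Lbr, which encodes an inner membrane protein that binds B-type lamins and HP1, lay near the middle of all genes tested by mean, at percentile 57.0, and differed between the libraries in the same direction as the B-type genes. It had 21.1 TPM in replicate 1 and 6.79 TPM in replicate 2, with a mean of 13.9 ± 10.1 TPM (SD, n = 2), and a log2 difference of -1.50. Lbr and Lmna, the genes of the tethers that mouse rods lack, thus differed in opposite directions, with Lmna at 0.14 times Lbr in replicate 1 and 2.23 times in replicate 2. Their sum was 24.1 and 21.9 TPM.

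The LEM-domain genes encode inner nuclear membrane or nucleoplasmic proteins that bind the chromatin protein BAF. Tmpo, which encodes the lamina-associated polypeptides 2 (LAP2), had 49.3 and 28.6 TPM, a mean of 38.9 ± 14.6 TPM. Emd, the emerin gene, had 32.2 and 42.8 TPM, a mean of 37.5 ± 7.52 TPM (SD, n = 2). Emd and Tmpo changed places between the libraries, with Emd at 0.65 times Tmpo in replicate 1 and 1.497 times in replicate 2. Lemd3, which encodes MAN1, an inhibitor of SMAD signalling, was lower than both in each library, at 17.5 and 9.90 TPM with a mean of 13.7 ± 5.37 TPM. Tmpo exceeded Lemd3 by 2.82 and 2.89 times, and Emd exceeded Lemd3 by 1.84 and 4.32 times.

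HP1 genes were the most abundant of the set and were led by Cbx3, the HP1 gamma gene. Cbx3 had 547 and 514 TPM, a mean of 530 ± 23.8 TPM (SD, n = 2), and ranked 182 of all symbols by mean TPM. Cbx1, the HP1 beta gene, had 100.3 and 62.2 TPM, a mean of 81.2 ± 26.9 TPM. Cbx5, the HP1 alpha gene, had 53.8 and 47.8 TPM, a mean of 50.8 ± 4.23 TPM (SD, n = 2).

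The order of the HP1 genes was the same in both libraries and their values did not overlap. Cbx3 made up 78.0% and 82.4% of the summed HP1 TPM, Cbx1 14.3% and 9.97%, and Cbx5 7.66% in each. Cbx3 exceeded Cbx5 by 10.2 and 10.8 times and Cbx1 by 5.46 and 8.26 times. The summed HP1 TPM was 701 and 624, or 28.8 and 24.3 times the summed lamin TPM. Cbx3 has near copies elsewhere in the genome: in GENCODE M21, 9 other genes carry at least 95% identity over at least 50% of its coding sequence of 549 bases, 7 of them processed pseudogenes, and no other gene of the set has such a copy. Of the 9, the table lists Als2cr12, at 0.28 and 1.53 TPM. It lists 219 of the 9935 processed pseudogene names in GENCODE, and gives no level for the copies it leaves out. The sources used here do not say how reads shared by Cbx3 and its copies were assigned, so the Cbx3 level is uncertain to that extent.

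Cbx3 and Cbx5 share a feature of position that the choice of genes did not use. Each starts head to head with a gene of an abundant nuclear RNA-binding protein, Cbx3 with Hnrnpa2b1 at 466 bases between the annotated starts and Cbx5 with Hnrnpa1 at 616 bases. None of the other 8 genes has a protein-coding neighbour that starts within 1000 bases on the opposite strand and points away, an arrangement found for 6.45% of the 20328 protein-coding genes of the table. A part of each intervening stretch, 250 bases long, is shown because it lies upstream of an HP1 gene and of its neighbour alike. Both are from RefSeq windows on GRCm38.p6, read towards the HP1 gene, with CG dinucleotides in capitals. The first is chr6:51469895-51470144 on the plus strand and the second chr15:103239853-103240102 on the minus strand.
Cbx3 and Hnrnpa2b1: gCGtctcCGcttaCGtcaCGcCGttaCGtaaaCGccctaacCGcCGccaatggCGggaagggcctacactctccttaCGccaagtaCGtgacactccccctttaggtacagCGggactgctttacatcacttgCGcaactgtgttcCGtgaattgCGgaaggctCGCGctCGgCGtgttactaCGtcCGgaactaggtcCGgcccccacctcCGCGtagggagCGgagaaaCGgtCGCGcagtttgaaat
Cbx5 and Hnrnpa1: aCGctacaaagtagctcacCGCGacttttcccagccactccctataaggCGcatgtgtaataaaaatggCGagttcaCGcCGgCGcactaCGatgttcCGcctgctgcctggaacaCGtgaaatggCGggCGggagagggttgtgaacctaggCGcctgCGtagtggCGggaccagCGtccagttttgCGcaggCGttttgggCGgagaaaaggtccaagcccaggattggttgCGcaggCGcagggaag

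The first sequence holds 29 CG in 250 bases, a count reached by 6.44% of the corresponding stretches of 27025 RefSeq genes, and the second holds 22, reached by 14.6%. The median of all was 6. The neighbours Hnrnpa2b1 and Hnrnpa1 were each more abundant than their own head-to-head HP1 gene in both libraries. Hnrnpa2b1 had 985 and 672 TPM, or 1.80 and 1.31 times Cbx3. Hnrnpa1 had 765 and 434 TPM, or 14.2 and 9.09 times Cbx5.

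RefSeq windows of 300 bases, from 250 before to 50 after the most upstream listed start, were found for 9 of the 10 genes, all except Lmnb1. The GC box GGGCGG, read on both strands, was in 9 of 9 windows and in 35.9% of the windows of all genes. CCAAT was in 5 of 9 and 38% of all, TATAAA in 0 of 9 and 14.2%, and CCGGAAG in 1 of 9 and 9.14%. GGGCGG contains a CG, and the 9 windows had a median of 29 CG against 7 over all. The windows of Lmna, Tmpo, Lbr and Cbx3 surround RefSeq starts that lie 6604, 9696, 645 and 256 bases from the GENCODE gene starts. These windows lie within the GENCODE genes and not upstream of them, and that of Lmna held 1 CG. A match of letters is a description and not a binding site.

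The full order by mean log2(TPM + 1) was Cbx3, Cbx1, Cbx5, Tmpo, Emd, Lemd3, Lbr, Lmnb2, Lmna and Lmnb1. Of the 9 neighbouring pairs in this order, 6 overlapped in their values over the libraries. With 2 libraries and no test between genes, the order within these pairs cannot be settled. Within each library taken alone, 2 of these 6, Cbx5 over Tmpo and Lbr over Lmnb2, had the same order. The 3 that did not overlap were Cbx3 over Cbx1, Cbx1 over Cbx5, and Emd over Lemd3. Over all 45 pairs, 39 had the same order in both libraries and 6 were in opposite order, of which 4 included Lmna. From Lemd3 down, the values of every neighbouring pair overlapped.

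On the deposited scale 8 of the 10 genes were lower in replicate 2 than in replicate 1, against 58.5% of all genes tested. The exceptions were Lmna and Emd. The count was 7 after rescaling without genes of the mitochondrial genome, when Cbx3 turned. After centring on the median of all genes it was 6, when Cbx3 and Cbx5 turned. Rescaling moved the median log2 difference of all genes to -0.117, and centring makes about as many genes lower as higher by construction. The shares of all genes lower after these steps are not given here, so these counts have no background beside them. The median log2 difference of the 10 was -0.72, against -0.20 over all genes tested. Lmna and Lbr were the 2 genes more than 1 log2 unit apart, where 31.2% of all genes tested were, and Lmnb1 came next at -0.995. Cbx3 and Cbx5 were closest, at -0.09 and -0.17, followed by Emd at 0.40. The differences of Cbx1, Tmpo and Lemd3 were alike, at -0.68, -0.77 and -0.76.

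**Figure D3:**
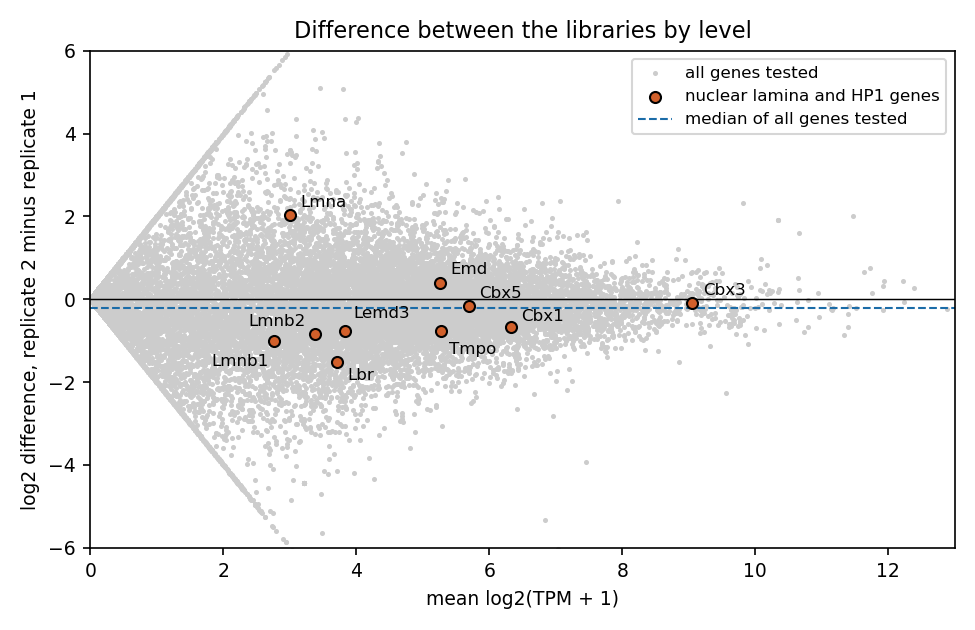
Log2 difference between the libraries (replicate 2 minus replicate 1) against mean log2(TPM + 1) for all 19968 genes tested (grey) and the 10 genes (orange), with the median of all genes tested as a dashed line at -0.20. Of the genes tested, 27 lie outside the plotted range. Lmna lies above the line at 2.03 and Lbr below it at -1.50, while Cbx3 is close to it.

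Genes of other parts of the nuclear envelope were listed in the same libraries. Of 17 genes of the inner nuclear membrane and of LINC complexes, which link the nucleus to the cytoskeleton, 13 were above 1 TPM and 8 above 10 TPM. The shares of all genes tested were 55.5% and 32.4%. Replicate 1 alone had 13 of the 17 at or over 10 TPM, against 49.8% of all genes tested. Syne1, which encodes the giant linker nesprin 1, led with 263 and 145 TPM, ahead of Tor1aip1, the gene of lamina-associated polypeptide 1, at 76.9 and 48.1 TPM and Tmem201 at 67.6 and 48.0 TPM. Syne2, the nesprin 2 gene, was lower, at 19.7 and 3.82 TPM. Syne3 was lowest at 1.31 and 0.22 TPM. The SUN-domain genes, whose proteins hold nesprins at the inner membrane, changed places between the libraries, with Sun1 at 46.1 and 25.9 TPM and Sun2 at 32.1 and 53.6 TPM. Banf1, the gene of the BAF protein that LEM domains bind, was steady at 37.9 and 43.3 TPM, a level close to Emd and Tmpo.

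The list of lamin tail processing holds farnesyltransferase subunits, enzymes that act on farnesylated proteins, and Narf, whose product binds prelamin A. All 6 of its genes were above 1 TPM, against 55.5% of all genes tested. Above 10 TPM there were 4, against 32.4% of all, and 2 with no variance trend, against 28.5%. Icmt, the carboxyl methyltransferase gene, led with 114 and 172 TPM. Narf had 51.9 and 69.8 TPM, and Fntb, the farnesyltransferase beta subunit gene, 37.3 and 19.3 TPM. Zmpste24, the prelamin A protease gene, was lowest by mean TPM, at 15.1 and 12.5 TPM. Rce1, an endoprotease gene of the same route, was lowest by mean log2(TPM + 1), at 1.55 and 27.4 TPM, a log2 difference of 3.48.

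Heterochromatin partners had the highest median of the 6 related lists, 6.09 on the log2(TPM + 1) scale. Of 19 genes 15 were above 1 TPM and 13 above 10 TPM, against 55.5% and 32.4% of all genes tested. Atrx, the gene of a chromatin remodeller of heterochromatin, had 611 and 664 TPM, which was 1.12 and 1.29 times Cbx3. Trim28, the gene of a corepressor that binds HP1, had 170 and 225 TPM. Pogz, the gene of a zinc finger protein that binds HP1, had 172 and 147 TPM. The H3 lysine methyltransferase genes were unequal: Ehmt2 had 69.5 and 64.8 TPM and Setdb1 47.0 and 34.0 TPM, whereas Suv39h1 had 4.25 and 3.98 TPM and Suv39h2 7.89 and 3.08 TPM, and neither Suv39h gene was called above 1 TPM in this fit. Under the 4 other limma settings Suv39h2 was called in 4 and Suv39h1 in 1. The last pair not called were the replication-linked chromatin assembly genes Chaf1b, at 5.48 and 0.79 TPM, and Chaf1a, the lowest of the list at 0.50 and 0.10 TPM.

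Of 29 nuclear pore genes 27 were above 1 TPM and 15 above 10 TPM, against 55.5% and 32.4% of all genes tested. In both libraries 23 reached 10 TPM, against 41.3%, and 25 did in each alone, against 49.8% and 46.5%. The list's median of 4.53 was close to that of the lamina and HP1 genes. Tpr, the gene of the pore's nuclear basket, matched closely between the libraries at 271 and 270.4 TPM, Nup88 had 194 and 177 TPM, and Nup214 180 and 69.4 TPM. Aaas was lowest by mean TPM, at 5.16 and 3.63 TPM, and Nup37 by mean log2(TPM + 1), at 7.11 and 1.99 TPM. In replicate 2, 24 of the 29 were lower, with a median log2 difference of -0.64. Of all genes tested 58.5% were lower, with a median of -0.20.

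Lmnb1, Tmpo and Lbr are known to be abundant in dividing cells, so genes of dividing cells were counted beside them. Of 15 such genes 2 were above 1 TPM, against 55.5% of all genes tested. They were Birc5 at 39.9 and 23.2 TPM and Top2a at 12.8 and 6.51 TPM. Plk1, next by mean, had 0.61 and 11.4 TPM. Mki67 had 0.22 and 0.09 TPM, Foxm1 0.20 TPM in replicate 1 and 0 in replicate 2, and Cdk1 was listed at 0 in both. The count rests on the fit: 5 were called with no variance trend, and 6 had at least 1 TPM in both libraries. Replicate 2 alone had 12 at or over 1 TPM. For these counts, in the same order, the shares of all genes tested were 61.5%, 67.6% and 74.5%. The lists were fixed for this work with earlier results of these data known, and their counts are descriptions.

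**Figure D4:**
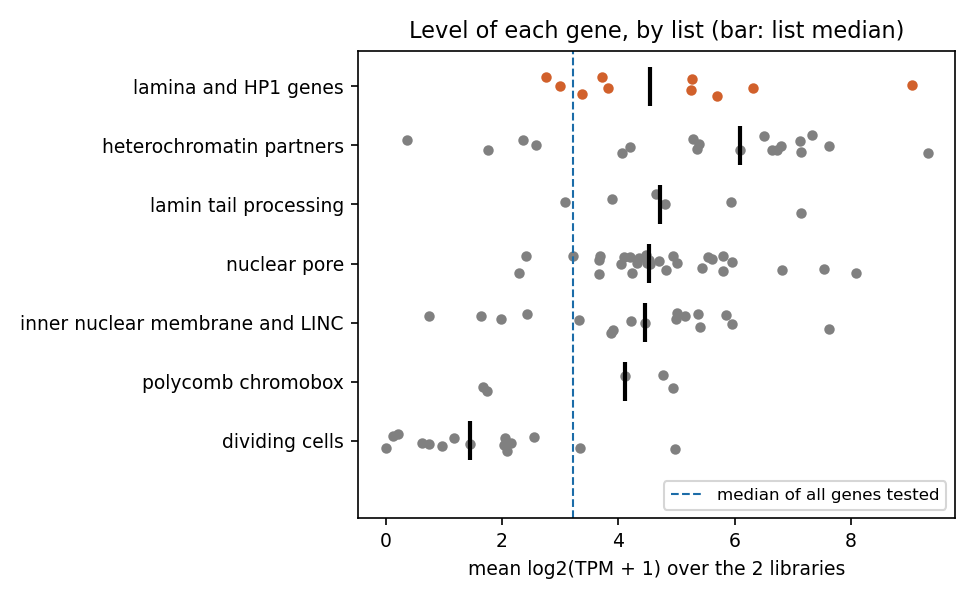
Mean log2(TPM + 1) over the 2 libraries for each gene of the lamina and HP1 set (orange) and of 6 related lists (grey), with list medians as bars and the median of all genes tested (3.22) as a dashed line. The median of heterochromatin partners (6.09) lies highest and that of genes of dividing cells (1.46) is the only one left of the dashed line.

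Genes with the most similar pair of values were found by Euclidean distance in log2(TPM + 1) over the 2 libraries. For Cbx3, the highest of the set, they were Hsp90aa1 at 530 and 520 TPM, Gm25472 at 528 and 520 TPM and Sulf2 at 550.1 and 536 TPM, with distances of 0.05, 0.05 and 0.06. For Lmnb1, the lowest by mean TPM, they were RP23-393F23.11 at 8.70 and 3.80 TPM, Alg8 at 8.51 and 3.96 TPM and Pradc1 at 8.31 and 3.88 TPM, with distances of 0.02, 0.05 and 0.05. Over 2 libraries such likeness means an equal level and an equal difference, and nothing more.

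GENCODE M21, which uses GRCm38 (mm10), annotates all 10 genes as protein-coding. On the plus strand are Lmnb1 (chromosome 18, 56707813 to 56753424), Emd (chromosome X, 74254687 to 74261548), Cbx1 (chromosome 11, 96789127 to 96808640) and Cbx3 (chromosome 6, 51470360 to 51483704). On the minus strand are Lmna (chromosome 3, 88480147 to 88509956), Lbr (chromosome 1, 181815335 to 181843046) and Cbx5 (chromosome 15, 103191544 to 103239816). Chromosome 10 carries 3 of the genes, all on the minus strand: Lmnb2 (80901203 to 80918245), Lemd3 (120923413 to 120979332) and Tmpo (91147571 to 91181315).

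A value is given per gene, not per transcript. The annotation holds 4 coding transcripts of Lmna and 5 of Tmpo, and lamin A cannot be told from lamin C here, nor the LAP2 forms from each other. Tmpo overlaps Gm26765, a non-coding gene on the opposite strand listed at 5.11 and 1.74 TPM, over 1080 bases. Lbr overlaps the end of Dnah14, listed at 0 in both libraries, over 440 bases. Without a statement that strand was used in counting, reads of such overlaps cannot be assigned to a gene with certainty.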

How the data were processed

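Total RNA of sorted type 5 bipolar cells was sequenced in 2 libraries, per the labels' protocols after amplification with a NuGEN Ovation kit. The authors deposited 1 table of TPM with a column per library, summing to 999999.75 and 999999.66 over 32813 symbols. RSEM 1.2.28, TopHat2 2.0.10 and mm10 appear in the submitters' processing notes without their roles. The sources used here do not state the annotation release, filters or strand use. The column of replicate 1 misspells Htr3a, and its replicate number gave the match. Depth is unknown, since TPM does not retain it, and no counting interval or floor is given.

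Values were put on the log2(TPM + 1) scale. Levels above 1 and 10 TPM were tested in R 4.3.3 with limma 3.58.1 (intercept only, variance trend, one-sided, Benjamini-Hochberg over the 19968 genes above 0 in either library, threshold 0.05), after a check on simulated data. Python 3.11.15, numpy 2.4.6, pandas 2.3.3 and matplotlib 3.10.9 were used otherwise. P-values rest on a variance taken from the trend with abundance over all genes in these 2 libraries. They do not measure a gene's own spread. Near copies were sought with BLAST in GENCODE M21 transcripts. The 10 genes, the gene lists and the tests were chosen with earlier results of these data known. Named genes are the 10, of each related list the 3 highest, the lowest, those at 0 in both libraries and those over 2 log2 units apart at a mean of at least 10 TPM, the highest of each marker list, and the 3 genes most like Cbx3 and Lmnb1. Further genes named for their role (Sun1, Sun2, Banf1, the methyltransferases, Mki67, Chaf1b, Nup37, neighbours and markers at 0 or far apart) were chosen after their values were seen. A few genes of this rule are not reported here. Alternatives were another pseudocount, a filter on low values, no variance trend, rescaling without genes of the mitochondrial genome, centring, no test, and leaving out each library.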

Additional observations from a re-analysis of the deposited data

How the results depend on the processing

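With a single library per setting no limma test exists, so leaving out a library gives counts at or over the line with no test. The 5 genes of the set above 10 TPM were the same under 4 other limma settings, where the share of all genes ranged from 28.5% to 41.6%. All 10 were then above 1 TPM, against 57.7% to 73.9% of all genes. Without replicate 1 and without replicate 2, 6 and 8 genes of the set were at or over 10 TPM, against 46.5% and 49.8% of all genes tested. At or over 1 TPM there were 10 and 10, against 74.5% and 77.7%. Polycomb chromobox genes numbered 3 of 5 above 1 TPM, against 5 of 5 at or over 1 TPM with no test, in both libraries and in each alone. Genes of dividing cells numbered 2 of 15, against 5 with no variance trend and 6 at or over 1 TPM in both libraries with no test. Replicate 1 alone had 6 at or over 1 TPM and replicate 2 alone had 12. For these counts, in the same order, the shares of all genes tested were 55.5%, 61.5%, 67.6%, 77.7% and 74.5%. The counts above 1 TPM of the other 4 lists stayed within 1.5 times under the alternatives run. For counts of the related lists above 10 TPM, alternatives were added after seeing the data. Nuclear pore genes numbered 15, against 23 at or over 10 TPM in both libraries and 25 and 25 in a single library. Inner nuclear membrane and LINC genes numbered 8, against 11 and 13 in a single library. With no variance trend, lamin tail processing genes numbered 2 and not 4, and Polycomb chromobox genes 1 and not 2. Genes of dividing cells numbered 1, against 2 and 2 in a single library. Rescaling without genes of the mitochondrial genome raised the median gene by 0.30 log2 units and turned the library difference of Cbx3 to 0.0422. Centring on the median of all genes turned it to 0.11 and that of Cbx5 to 0.0348. The share of Lmna in lamin TPM was 35.5% on average and ranged from 12.1% to 58.8% with a library left out, that of Lmnb1 from 14.8% to 35.2% around 25.0%, and that of Lmnb2 from 26.3% to 52.7% around 39.5%. The share of Cbx3 in HP1 TPM ranged from 78.0% to 82.4%. No paired analysis was possible because the series has 1 group. Unknown depth limits how firmly the values under 10 TPM, which include all 3 lamin means, can be read.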

Other observations

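The chromobox genes of the other branch of the family, whose proteins belong to Polycomb complexes and not to HP1, were lower than the HP1 genes. Cbx6 had 22.6 and 39.2 TPM and Cbx7 39.2 and 17.6 TPM. Both were above 1 TPM in limma, as were 55.5% of all genes tested. Cbx2 was the lowest by mean, at 3.56 and 1.24 TPM. Each of the 3 HP1 genes exceeded each of these in both libraries.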
